A study of Mus musculus with 11 samples.

Results

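Aminoacyl-tRNA synthetases are the enzymes that load each amino acid onto its tRNA. The genes described here were chosen by their symbols in the array annotation: 20 cytosolic enzymes and 16 mitochondrial ones, whose symbols end in 2. A probe set that carried a single gene symbol was found for 35 of the 36, which is 19 cytosolic and 16 mitochondrial genes among the 18193 genes with such a probe set. No single-symbol probe set was found for Dars, the cytosolic aspartyl-tRNA synthetase, which is not analysed here. Where a gene had several probe sets, as 23 of the 35 did, the one with the highest mean intensity over all arrays stood for it. All 35 passed the filter on dim probe sets and were tested among 15623 genes.

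The RNA came from 3T3-L1 cells, a clonal mouse preadipocyte line, after differentiation to adipocytes, and was hybridised to 11 Affymetrix arrays. Cells of the group CI received 4 additions of 10 nM insulin as a model of hyperinsulinemia (2 arrays). TNF cells were kept in 2 ng/ml TNFα for 4 days as a model of chronic low-dose inflammation (3 arrays). DEX cells were kept in 20 nM dexamethasone, renewed every other day for 8 days, as a model of insulin resistance caused by glucocorticoid (3 arrays), and control cells are labelled as having no treatment (3 arrays). The labels name 0.01% ethanol as the carrier control for dexamethasone and do not say whether the control arrays received it. All groups were at the same day after differentiation when harvested, and 3 µg of total RNA was labelled per array. The labels do not say that replicates were separate cultures, so p-values measure the spread between arrays, which may be technical.

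Protein synthesis runs in 2 compartments of the cell with separate sets of tRNAs. The cytosolic synthetases serve translation of nuclear-encoded mRNAs, while the mitochondrial set, also encoded in the nucleus, serves the ribosome that makes the proteins of mitochondrial DNA. Several cytosolic enzymes are bound in a multi-synthetase complex held together by the scaffold proteins Aimp1, Aimp2 and Eef1e1. Cytosolic synthetase genes are known targets of the transcription factor ATF4, which is translated when the initiation factor eIF2α is phosphorylated in the integrated stress response, and Wars, the tryptophanyl enzyme, is also known as an interferon-γ target.

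The DNA letters recognised by ATF4 together with C/EBP proteins, TGATGNAA, were searched on both strands in the RefSeq promoters (build GRCm38.p6) from 250 bases before to 50 bases after the annotated start. Promoters of 26 of the 35 genes were in the table. The 5 stretches below are shown because they are the 5 synthetase promoters that hold these letters, and all 5 genes rose with insulin. Each runs from 120 bases before to 20 bases after the start, 5′ to 3′ on the gene's own strand, with each match in capitals; TTNCATCA is the same motif read from the other strand. They lie at chr8:111033722-111033861 on the plus strand for Aars, chr6:55037881-55038020 on the plus strand for Gars, chr13:49682010-49682149 on the plus strand for Iars, chr15:11399639-11399778 on the minus strand for Tars and chr4:129189783-129189922 on the plus strand for Yars.
Aars: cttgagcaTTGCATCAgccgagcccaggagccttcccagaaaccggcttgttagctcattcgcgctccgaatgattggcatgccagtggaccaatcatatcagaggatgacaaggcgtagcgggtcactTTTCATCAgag
Gars: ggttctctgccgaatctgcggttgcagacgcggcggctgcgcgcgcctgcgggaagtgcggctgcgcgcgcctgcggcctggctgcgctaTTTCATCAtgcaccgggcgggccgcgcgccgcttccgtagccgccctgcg
Iars: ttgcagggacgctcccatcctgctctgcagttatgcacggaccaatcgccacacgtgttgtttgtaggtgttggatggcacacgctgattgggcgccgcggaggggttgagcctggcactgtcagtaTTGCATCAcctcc
Tars: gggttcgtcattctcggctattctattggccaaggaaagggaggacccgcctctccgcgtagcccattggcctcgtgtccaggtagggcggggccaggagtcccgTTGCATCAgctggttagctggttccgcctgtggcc
Yars: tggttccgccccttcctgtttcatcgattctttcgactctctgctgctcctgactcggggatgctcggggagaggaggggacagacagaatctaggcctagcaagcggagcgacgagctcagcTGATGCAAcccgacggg

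The stricter letters TGATGCAA were present in Aars, Iars, Tars and Yars, and in 0.895% of all 32851 promoters of the same length. The motif with 1 free base, TGATGNAA, was also present in Gars, and in 3.97% of all promoters. Aars held it at both ends of the printed stretch. Of the cytosolic genes whose promoter was in the table, 5 of 7 that rose in CI and 0 of 5 that did not pass in CI held TGATGNAA. In TNF the counts were 2 of 4 that rose and 3 of 8 that did not pass. In DEX, Aars fell and the other 4 of the 5 did not pass. No mitochondrial synthetase promoter in the table held it, over 15 promoters of 14 genes. The E-box CACGTG was present in Aars, Ears2, Farsb, Iars and Tars and in 7.15% of all promoters, and the interferon-γ-activated sequence TTCNNNGAA in Aars, Kars and Nars2 and in 8.30% of all promoters. Every TGATGCAA match is also a TGATGNAA match. A match describes the letters and does not show that a factor is bound.

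The deposited values were linear intensities whose quartiles differed between arrays by no more than 0.0765 on the log2 scale. Fold changes below are differences of log2(intensity + 16), tested with limma over all 15623 genes, and a gene is said to have risen or fallen where its Benjamini-Hochberg adjusted p was under 0.05. The errors are standard errors of the fit beside log2 fold changes and standard deviations between arrays beside intensities. The signal ratio of the 3′ to the 5′ actin probe sets, a measure of RNA length, ran between 1.43 and 1.82, and the 2 CI arrays held both extremes, with 1.82 on replicate 1 and 1.43 on replicate 2. Of 18 probe sets of added control RNAs, all 18 had a lower mean than control in CI and in TNF, and 17 in DEX. The median log2 difference from control was -0.23 in CI, -0.07 in TNF and -0.05 in DEX. Summed intensities of 10 adipocyte markers ran between 119392 and 119868 in CI, 99512 and 100545 in TNF and 113462 and 119998 in DEX, against 118531 to 118743 in control. Those of 10 preadipocyte and fibroblast markers ran between 52824 and 55105 in CI, 70372 and 72285 in TNF and 41762 and 47913 in DEX, against 59802 to 65890 in control. The sums for 10 macrophage and leukocyte markers were 4268 to 4635 in CI, 6372 to 6832 in TNF and 3675 to 4167 in DEX, against 5025 to 5222 in control, and no marker of these lists was at 0. Each sum took in 10 of 12 listed markers, is weighted to the brightest and can hide opposite moves. Tested singly, adipocyte genes gave 2 higher and 0 lower calls in CI, 0 and 4 in TNF, and 1 and 3 in DEX. The preadipocyte list gave 0 and 5, 5 and 0, and 2 and 6 in the same order. The macrophage list gave 1 and 2, 3 and 1, and 1 and 3. In DEX, Slc2a4 at -0.80, Pparg at -0.39 and Cebpa at -0.29 fell, while Cidec at 0.22 rose. The part of these marker shifts in the synthetase results was not tested. In RNA from whole cultures, fewer cells of a type and less RNA per cell cannot be told apart.

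The 3 treatments divided the synthetase genes by compartment in different ways. With insulin, 11 of 19 cytosolic genes rose and none fell, while 1 of 16 mitochondrial genes rose. With TNFα, 8 of 19 cytosolic genes rose and 4 of 16 mitochondrial genes fell. With dexamethasone, 7 of 16 mitochondrial genes rose, whereas 3 cytosolic genes rose and 1 fell. Over all genes tested, 8.38% rose and 8.88% fell in CI, 13.9% rose and 11.2% fell in TNF, and 14% rose and 13.6% fell in DEX. The cytosolic genes were brighter, with a median control mean of 1326 intensity units against 410 for the mitochondrial genes. Shares and medians over all genes were not matched for brightness.

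**Figure D1:**
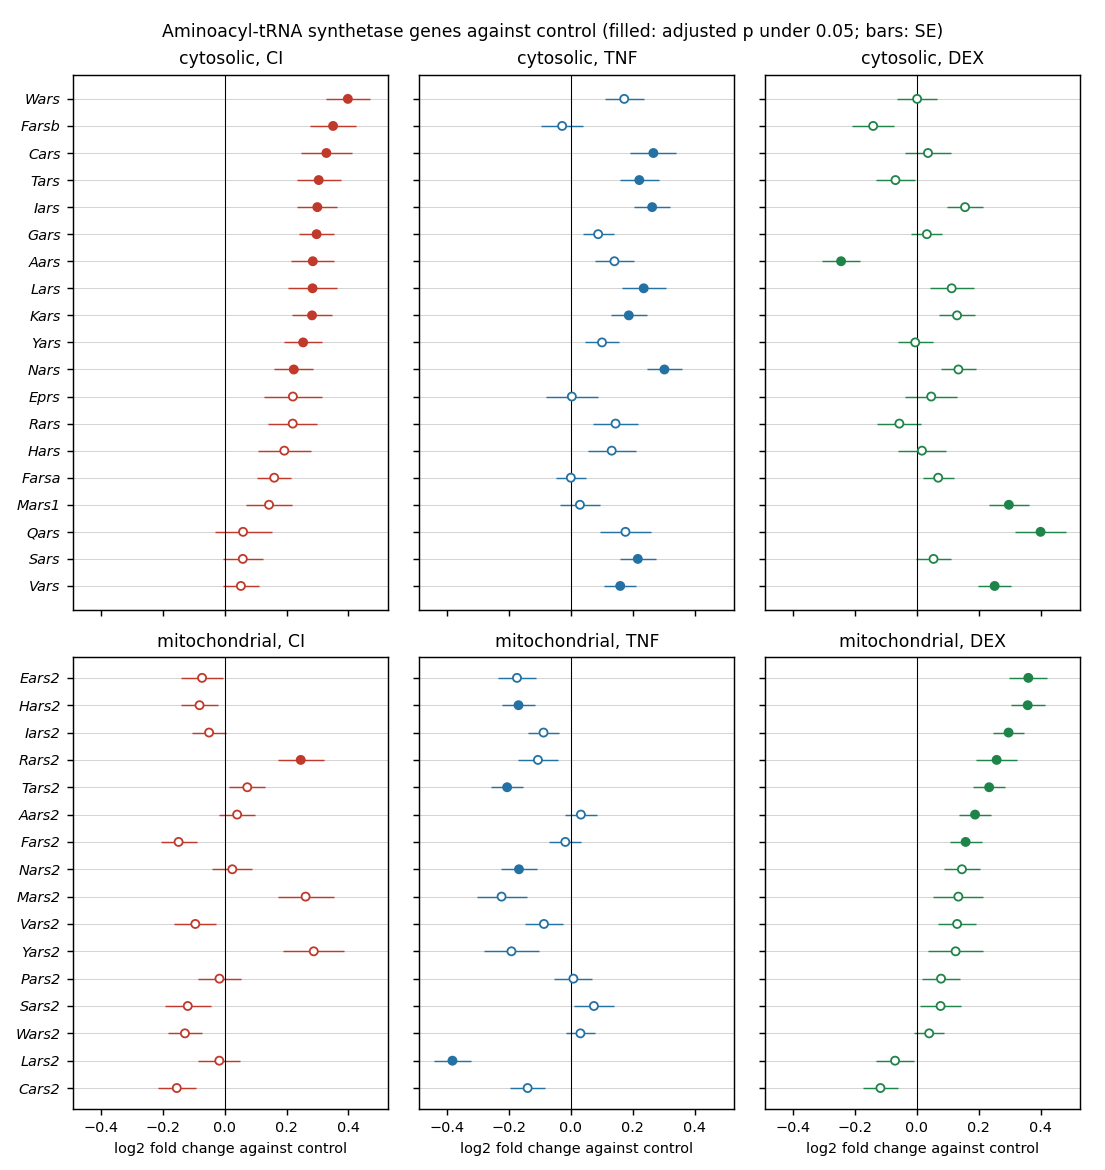
Log2 fold change against control (horizontal axis) of 19 cytosolic genes in the upper row and 16 mitochondrial genes in the lower row, for CI, TNF and DEX from left to right; bars are standard errors and filled points have an adjusted p under 0.05. All 19 cytosolic points lie above 0 in CI, 12 of 16 mitochondrial points lie below 0 in TNF and 14 of 16 mitochondrial points lie above 0 in DEX.

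In CI the cytosolic set was higher than in control as a group: all 19 log2 fold changes were above 0, between 0.05 and 0.40, with a median of 0.25 against 0.01 for all genes tested. Both CI arrays were above every control array for 15 of the 19, beside 24% of all genes. The changes were modest, and the highest, Wars, was 1.32-fold. Wars had 2176 and 2218 intensity units in CI, against 1642, 1626 and 1724 in control. The CI and control arrays did not overlap, and the log2 fold change was 0.40 ± 0.0711 (adjusted p = 0.00135). All 4 Wars probe sets rose in CI when every probe set was tested, by 0.26 to 0.43 on the log2 scale.

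Gars, the glycyl enzyme that serves both compartments from 1 gene, had 5844 and 5710 in CI, against 4854, 4656 and 4594 in control. Both CI arrays were above all control arrays, a log2 fold change of 0.30 ± 0.0558 (adjusted p = 0.00198). Farsb, the β subunit of the phenylalanyl enzyme, had 1805 and 1590 in CI, against 1363, 1285 and 1331 in control. Its groups did not overlap either, and the log2 fold change was 0.35 ± 0.0756 (adjusted p = 0.00508). Its partner Farsa, the catalytic α subunit, had 1051 and 1087 in CI, against 977, 922 and 967 in control; its arrays also did not overlap, but it lay just outside the threshold with 0.16 ± 0.0554 (adjusted p = 0.0616).

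Iars, the isoleucyl enzyme and a member of the complex, had 1733 and 1842 in CI, against 1464, 1394 and 1491 in control. Kars, the lysyl enzyme of the complex, which also supplies mitochondria, had 1649 and 1472 in CI, against 1309, 1212 and 1318 in control. Neither gene's CI arrays overlapped the control arrays, and the log2 fold changes were 0.30 ± 0.0648 for Iars (adjusted p = 0.00514) and 0.28 ± 0.0650 for Kars (adjusted p = 0.00755). The other cytosolic genes that rose were Tars at 0.30, Aars at 0.28, Yars at 0.25, Cars at 0.33, Lars at 0.28 and Nars at 0.22 on the log2 scale, which load threonine, alanine, tyrosine, cysteine, leucine and asparagine. Nars lay closest inside the threshold, with 3819 and 3928 in CI, against 3220, 3315 and 3414 in control (adjusted p = 0.0232).

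In CI 3 of the 7 measured enzymes of the complex rose (Iars, Kars and Lars) and 8 of the 12 cytosolic enzymes outside it, a difference that was not tested. Eprs, the bifunctional glutamyl-prolyl enzyme of the complex, had 2506 and 3286 in CI, against 2588, 2310 and 2494 in control. CI replicate 2 was above all control arrays and replicate 1 lay among them, and the log2 fold change of 0.22 ± 0.0939 did not pass (adjusted p = 0.130). Another Eprs probe set did pass in the fit over every probe set, at 0.28 ± 0.0765 (adjusted p = 0.0377). The lowest cytosolic values were those of Vars, Sars and Qars, with log2 fold changes of 0.05 to 0.06, none of which passed. Among scaffold genes Eef1e1 rose by 0.53 ± 0.0602 on the log2 scale (adjusted p = 4.49e-05), with 1277 and 1212 in CI, against 829, 854 and 889 in control. Aimp1 and Aimp2 were at 0.15 each and did not pass (adjusted p = 0.159 and 0.116).

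The mitochondrial median in CI was -0.03, and the share of the 16 genes that rose, 6.25%, was near the 8.38% of all genes. Rars2, the arginyl enzyme, was the gene that rose: it had 1554 and 1340 in CI, against 1209, 1188 and 1248 in control, a log2 fold change of 0.25 ± 0.0737 (adjusted p = 0.0323). Both CI arrays were above the control arrays, and replicate 1 was the higher. Yars2, the tyrosyl enzyme, had 572 and 493 in CI, against 409, 451 and 437 in control, and lay just outside the threshold with 0.29 ± 0.0983 (adjusted p = 0.0580). The arrays of Cars2, Fars2, Wars2 and Sars2 lay below all control arrays without passing the test, at log2 fold changes of -0.16 to -0.12; over all genes tested 22% lay so.

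The CI result depended on its pair of arrays. Without CI replicate 2, a single CI array was left and assumed to vary like the other groups, and 4 cytosolic genes passed in place of 11 (Wars, Gars, Farsb and Kars); without CI replicate 1, Farsb, Kars, Lars, Nars and the mitochondrial Rars2 no longer passed, at adjusted p = 0.0970 for Farsb, 0.133 for Kars and 0.381 for Rars2. Wars and Gars passed under every alternative run.

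In TNF the cytosolic genes were again more often higher, with a median of 0.16 against -0.01 for all genes, and 14 of 19 had every TNF array above every control array, beside 21.8% of all genes. The smallest adjusted p belonged to Nars. Nars had 3885, 4081 and 4326 in TNF, against 3220, 3315 and 3414 in control. All 3 TNF arrays were above all control arrays, and the log2 fold change was 0.30 ± 0.0562 (adjusted p = 0.00107). Iars had 1690, 1664 and 1881 in TNF, against control arrays of 1394 to 1491, without overlap (0.26 ± 0.0579, adjusted p = 0.00387). Sars, the seryl enzyme, had 3007, 3191 and 3329 in TNF, against 2832, 2633 and 2723 in control, also without overlap (0.22 ± 0.0575, adjusted p = 0.0126).

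Cars had 586, 553 and 513 in TNF, against 487, 440 and 437 in control, a log2 fold change of 0.27 ± 0.0743 (adjusted p = 0.0164). A dimmer Cars probe set was at -0.11 ± 0.0658 in TNF, the opposite sign, without passing. Tars had 1963, 1973 and 1829 in TNF, against 1735, 1597 and 1607 in control (0.22 ± 0.0637, adjusted p = 0.0195). For Cars and for Tars every TNF array was above every control array. Lars, Kars and Vars rose by 0.24, 0.19 and 0.16, and Vars, the valyl enzyme, lay closest inside the threshold with 1306, 1359 and 1416 in TNF, against 1238, 1187 and 1222 in control (adjusted p = 0.0378).

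Wars lay just outside it in TNF. It had 1749, 1854 and 2039 in TNF, against 1642, 1626 and 1724 in control, so the groups did not overlap, and the log2 fold change was 0.17 ± 0.0636 (adjusted p = 0.0604). Gars was at 0.09 ± 0.0499 (adjusted p = 0.216), Eprs at 0.00 ± 0.0840 (adjusted p = 0.983), Aimp1 at 0.12 and Aimp2 at 0.07, none of which passed. Eef1e1 fell in TNF, with 781, 749 and 777, against 829, 854 and 889 in control, a log2 fold change of -0.15 ± 0.0538 (adjusted p = 0.0489).

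The mitochondrial genes lay the other way in TNF, with a median of -0.12, and 10 of 16 had every TNF array below every control array, beside 21.3% of all genes. Lars2, the leucyl enzyme, had 443, 447 and 479 in TNF, against 625, 580 and 595 in control. Its groups were widely apart, with a log2 fold change of -0.38 ± 0.0609 (adjusted p = 0.000288), and a second Lars2 probe set also fell, by 0.26. Tars2 had 529, 538 and 528 in TNF, against 633, 585 and 630 in control (-0.21 ± 0.0521, adjusted p = 0.00930), without overlap.

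Hars2, the histidyl enzyme, had 497, 499 and 497 in TNF, against 583, 521 and 583 in control, a log2 fold change of -0.17 ± 0.0545 (adjusted p = 0.0337). Nars2, the asparaginyl enzyme, had 266, 290 and 297 in TNF, against 321, 318 and 324 in control (-0.17 ± 0.0580, adjusted p = 0.0464). Both genes' TNF arrays were below all control arrays. Ears2, the glutamyl enzyme, also did not overlap, with 246, 238 and 235 in TNF, against 277, 251 and 291 in control, but lay just outside the threshold (-0.17 ± 0.0619, adjusted p = 0.0518).

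Many of the TNF calls were close to the threshold. The 8 cytosolic calls became 2 without control replicate 2 (Nars and Iars), 5 without TNF replicate 2 and 4 without TNF replicate 3. The 4 mitochondrial calls became 2 without TNF replicate 1, TNF replicate 2, control replicate 1 or control replicate 3. Scaling also moved the split between higher and lower calls, which was 8 to 4 as deposited, 9 to 2 after median centring and 4 to 7 after quantile normalization; Nars, Iars, Lars2 and Tars2 passed under every alternative run.

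In DEX it was mitochondrial genes that rose, with a median log2 fold change of 0.14 over the 16 against 0.05 for the cytosolic genes and 0.02 for all genes. All DEX arrays were above all control arrays for 9 of the 16, beside 21.8% of all genes tested. Hars2 had 707, 739 and 729 in DEX, against 583, 521 and 583 in control. No DEX array came near the control range, and the log2 fold change was 0.36 ± 0.0545 (adjusted p = 0.000137). Iars2, the isoleucyl enzyme, had 1090, 1128 and 1130 in DEX, against 919, 885 and 912 in control (0.30 ± 0.0502, adjusted p = 0.000367). Ears2 had 337, 376 and 351 in DEX, against 277, 251 and 291 in control (0.36 ± 0.0619, adjusted p = 0.000413). Neither Iars2 nor Ears2 overlapped between the groups.

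Tars2 had 724, 739 and 717 in DEX, against 633, 585 and 630 in control, a log2 fold change of 0.23 ± 0.0521 (adjusted p = 0.00329). Rars2 had 1423, 1575 and 1377 in DEX, against 1209, 1188 and 1248 in control (0.26 ± 0.0659, adjusted p = 0.00834). All DEX arrays of both genes were above all control arrays. Aars2, the alanyl enzyme, rose by 0.19 (adjusted p = 0.0148), and Fars2, the phenylalanyl enzyme, lay closest inside the threshold with 1131, 1256 and 1206 in DEX, against 1064, 1058 and 1092 in control (0.16, adjusted p = 0.0354). Nars2 lay just outside it, with 334, 375 and 362 in DEX, against 321, 318 and 324 in control (0.15 ± 0.0580, adjusted p = 0.0769).

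No other probe set of the mitochondrial genes that rose in DEX passed. In the fit over every probe set, the other Hars2 probe set was at 0.20 ± 0.0674 (adjusted p = 0.0679) and the other Iars2 probe set at 0.08 ± 0.0451 (adjusted p = 0.251), both dimmer. Of 10 other probe sets of the genes that passed in DEX, 9 had the same sign and 1 passed, against 8 of 10 that passed in CI and 4 of 7 in TNF. The 1 that passed in DEX belonged to the cytosolic Qars, and the 1 of the other sign to Ears2.

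The cytosolic genes that rose in DEX were Qars, Vars and Mars1. That share of the 19 cytosolic genes, 15.8%, was near the 14% of all genes that rose. Qars, the glutaminyl enzyme of the complex, had 1626, 1856 and 1689 in DEX, against 1374, 1304 and 1227 in control, a log2 fold change of 0.40 ± 0.0825 (adjusted p = 0.00188). Vars had 1444, 1507 and 1400 in DEX, against 1238, 1187 and 1222 in control (0.25 ± 0.0526, adjusted p = 0.00210). Mars1, the methionyl enzyme of the complex, had 1258, 1438 and 1299 in DEX, against 1081, 997 and 1165 in control (0.30 ± 0.0657, adjusted p = 0.00307). All 3 genes had every DEX array above every control array, and none of them passed in CI.

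Aars fell in DEX, and its arrays were the only ones of the 35 genes to lie wholly below control, as 18.7% of all genes did. It had 4098, 3900 and 3883 in DEX, against 4948, 4577 and 4574 in control, without overlap, and the log2 fold change was -0.25 ± 0.0618 (adjusted p = 0.00758). In CI the same probe set had 5296 and 6186. Iars lay just outside the threshold in DEX, with 1622, 1625 and 1602, above every control array (0.16 ± 0.0579, adjusted p = 0.0594). Wars was level with control, with 1569, 1758 and 1671 in DEX and a log2 fold change of 0.00 ± 0.0636 (adjusted p = 0.996). Gars at 0.03, Kars at 0.13, Eprs at 0.05, Aimp1 at 0.12 and Aimp2 at 0.06 did not pass, while Eef1e1 fell by 0.32 on the log2 scale (adjusted p = 0.000333), with 652, 710 and 687 in DEX.

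Under every alternative run, 9 of the 11 DEX calls passed, all but Aars2 and Fars2; of the calls in CI it was 2 of 12 and in TNF 4 of 12. Without DEX replicate 2, Farsb also fell, making 2 cytosolic genes that fell, and Cars2 fell among the mitochondrial genes.

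**Figure D2:**
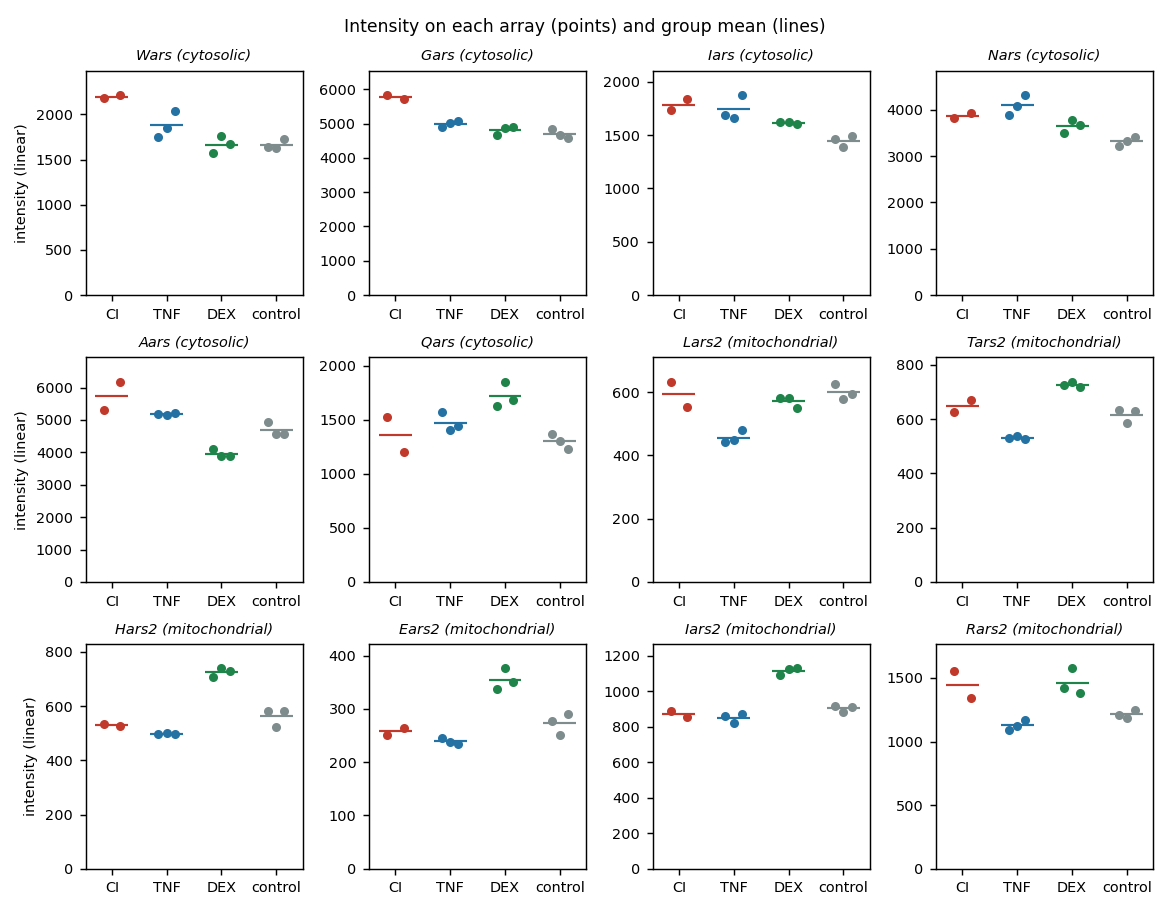
Linear intensity on each array (points) with the group mean (line) for 6 cytosolic and 6 mitochondrial synthetase genes, in CI (2 arrays), TNF, DEX and control (3 arrays each), with each vertical axis starting at 0. Wars and Gars are highest in CI, Lars2 is lowest in TNF, and Hars2, Ears2 and Iars2 stand apart in DEX.

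The gap between the compartments can be read on each array as the median cytosolic minus the median mitochondrial log2 value. It was 2.10 and 2.01 in CI, 2.07, 2.04 and 1.94 in TNF and 1.95, 1.79 and 1.94 in DEX, against 1.74, 1.67 and 1.77 in control. Every treated array was above every control array, with a spread within groups of 0.0707 (SD), though the level of this gap is between medians of different probe sets and has no meaning of its own. Taken gene by gene against control, the cytosolic median log2 fold change exceeded the mitochondrial one by 0.29 in CI and 0.28 in TNF, and the difference was -0.09 in DEX. In CI it was 0.22 without CI replicate 2. For DEX the shift of the gap between medians and the difference of the median fold changes had opposite signs, so the direction of the compartment difference in DEX depended on the summary used.

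Enzymes for the same amino acid can be set side by side, counting Eprs for both Ears2 and Pars2 and Farsa for Fars2. The cytosolic enzyme had the higher log2 fold change in 13 of 16 pairs in CI, 15 of 16 in TNF and 4 of 16 in DEX. The leucyl pair was widest apart in TNF, with Lars at 0.24 and Lars2 at -0.38. The tryptophanyl pair was widest apart in CI, with Wars at 0.40 and Wars2 at -0.13. In DEX the alanyl pair was widest apart in the other direction, with Aars at -0.25 and Aars2 at 0.19. The 3 comparisons share the control arrays, so their pair counts are not independent of each other.

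**Figure D3:**
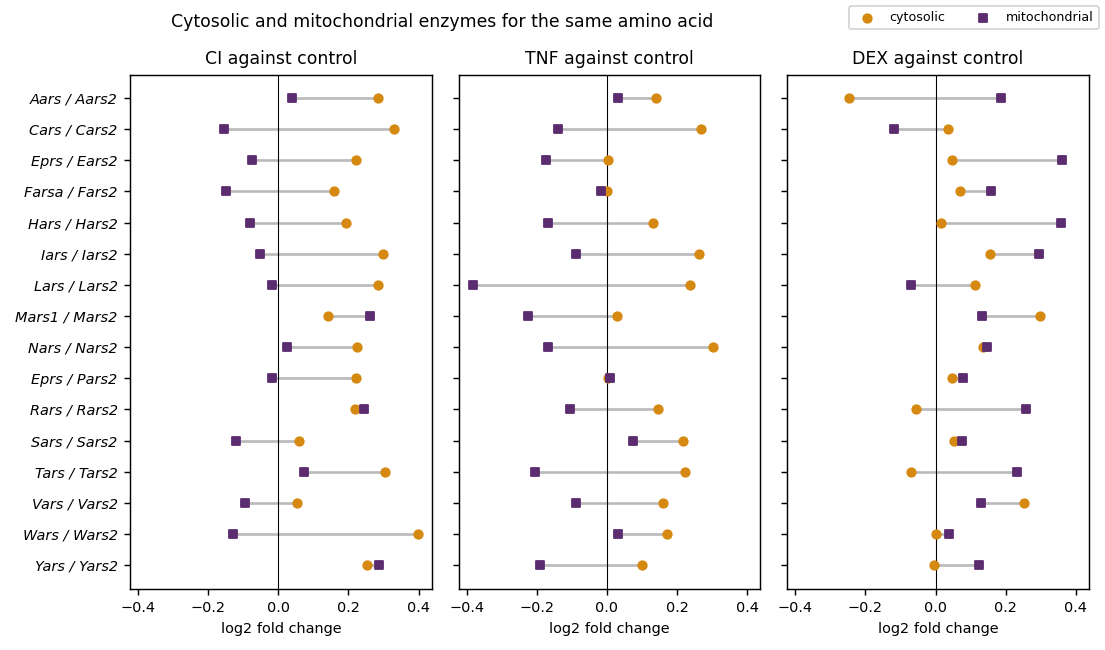
Log2 fold change against control (horizontal axis) of the cytosolic enzyme (circles) and the mitochondrial enzyme (squares) for the same amino acid, joined by a line, for CI, TNF and DEX from left to right. The circle lies to the right in 13 of 16 pairs in CI, 15 of 16 in TNF and 4 of 16 in DEX.

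Across the comparisons with control, which share the same control arrays, 6 cytosolic genes rose in both CI and TNF: Cars, Iars, Kars, Lars, Nars and Tars. Farsb, Gars, Wars and Yars rose in CI and did not pass elsewhere. Hars2 and Tars2 fell in TNF and rose in DEX, and Rars2 rose in CI and DEX. Of the 35, 4 cytosolic genes (Eprs, Farsa, Hars and Rars) and 7 mitochondrial ones passed in no comparison with control. Mars2, the methionyl enzyme of mitochondria, was dim, with a control mean of 62.9 ± 3.24 (SD, n = 3).

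Setting the treatments against each other tested these differences directly. The treatments differ in agent and also in exposure, such as 4 days for TNFα and 8 days for dexamethasone. These contrasts cannot tell agent and exposure time apart. TNF against DEX gave the widest separation: 12 of 16 mitochondrial genes were lower in TNF and none higher, and 7 of 19 cytosolic genes were higher and 2 lower, beside 18.2% of all genes higher and 18% lower. Hars2 was -0.53 ± 0.0545 (adjusted p = 2.04e-06), Ears2 -0.53 ± 0.0619 (adjusted p = 6.63e-06), Tars2 -0.44 ± 0.0521 (adjusted p = 8.38e-06) and Iars2 -0.39 ± 0.0502 (adjusted p = 2.3e-05). In the fit over every probe set, the other probe set of Hars2, of Tars2 and of Iars2 was also lower and passed. Of 3 other Ears2 probe sets, 2 had the same sign and 0 passed. Aars was higher in TNF by 0.39 ± 0.0618 (adjusted p = 0.00017). Wars was higher by 0.17 (adjusted p = 0.0470), with overlapping arrays, and Eef1e1 by 0.17 (adjusted p = 0.0249). Gars and Kars at 0.06, Eprs at -0.04, Atf4 at -0.07, Aimp1 at -0.01 and Aimp2 at 0.01 did not pass. The mitochondrial count stayed between 10 and 12 when any array was left out, whereas the cytosolic higher count was 2 without DEX replicate 1, DEX replicate 3 or TNF replicate 2 and 4 without TNF replicate 3. The split over both compartments was 7 higher to 14 lower as deposited, and 4 to 16 after quantile normalization.

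DEX against CI separated the compartments too. Here 8 cytosolic genes were lower in DEX and 2 higher, while 7 mitochondrial genes were higher and none lower, beside 17.1% of all genes higher and 16.9% lower. Aars was at -0.53 ± 0.0691 (adjusted p = 2.17e-05), followed by Farsb at -0.49, Wars at -0.40, Tars at -0.37 and Gars at -0.26. Hars2 at 0.44, Ears2 at 0.43, Iars2 at 0.35 and Fars2 at 0.31 were higher in DEX. In the fit over every probe set, the other probe set of Iars2 and of Fars2 passed and that of Hars2 did not. Of 3 other Ears2 probe sets, 2 had the same sign and 0 passed. With the mean of all probe sets, Ears2 did not pass (limma adjusted p = 0.0616). Without either CI array the mitochondrial higher count was 4, and the cytosolic higher count was 1 without CI replicate 1 and 0 without CI replicate 2. Kars at -0.15, Eprs at -0.17, Atf4 at -0.35, Aimp1 at -0.02 and Aimp2 at -0.09 did not pass, and Eef1e1 was -0.85 ± 0.0602 (adjusted p = 3.52e-08).

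TNF against CI showed 6 mitochondrial genes lower in TNF and 1 higher, and 4 cytosolic genes lower and none higher. Over all genes 18.9% were higher and 17.3% lower, and the cytosolic share that was lower, 21.1%, was near the latter. Of the 4 cytosolic genes, Farsb passed under every alternative run, and Farsa, Gars and Wars did not. Mars2 was -0.49, Yars2 -0.48, Lars2 -0.37, Rars2 -0.35 and Tars2 -0.28 on the log2 scale, and among cytosolic genes Farsb was -0.38, Wars -0.23 and Gars -0.21. The cytosolic lower count was 2 without CI replicate 2, TNF replicate 1 or TNF replicate 2. The split was 1 higher to 10 lower as deposited and 4 to 8 after median centring. Eef1e1 at -0.68 (adjusted p = 5.84e-07) and Atf4 at -0.42 (adjusted p = 0.0401) were lower in TNF, and Kars at -0.09, Eprs at -0.22, Aimp1 at -0.03 and Aimp2 at -0.07 did not pass.

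The genes that act around the synthetases were described by lists, whose members other than the synthetases were counted. The shares over all genes tested, 8.38% higher and 8.88% lower in CI, 13.9% and 11.2% in TNF and 14% and 13.6% in DEX, stand beside each of these counts. Of 36 tested genes of the integrated stress response and ATF4, 14 rose and 2 fell in CI with a median log2 fold change of 0.23, 5 rose and 4 fell in TNF with a median of -0.03, and 9 rose and 3 fell in DEX with a median of 0.05. Cth, which makes cysteine, had 1370 and 1569 in CI, against 638, 578 and 561 in control, a log2 fold change of 1.29 ± 0.0905 (adjusted p = 1.31e-06). Psph and Psat1, enzymes of serine synthesis, rose by 0.58 and 0.51, and Stbd1, a glycogen-binding protein, rose by 0.96. Both CI arrays were above every control array for all 4 genes, which were picked by their values. Over all genes tested 24% lay so.

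Atf4 itself had 5290 and 7863 in CI, against 5849, 5194 and 4443 in control. Its CI replicate 2 was above all control arrays and replicate 1 lay within them, and the log2 fold change of 0.33 ± 0.149 did not pass (adjusted p = 0.154). It was at -0.09 in TNF and -0.02 in DEX, without passing. Asns, asparagine synthetase, a known ATF4 target, was at 0.07 ± 0.0543 in CI and did not pass (adjusted p = 0.478). The 14 genes that rose in CI became 8 without CI replicate 2.

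In TNF the shares of the stress response list that rose and fell, 13.9% and 11.1%, were near those of all genes, 13.9% and 11.2%. The leading genes of that list went both ways. Phgdh, the first enzyme of serine synthesis, fell by 0.33 on the log2 scale (adjusted p = 0.000691), Eif4ebp1, a repressor of cap-dependent translation, fell by 0.26 and Stbd1 fell by 0.54, while Shmt2, the mitochondrial serine hydroxymethyltransferase, rose by 0.28. The 5 genes that rose became 2 without TNF replicate 1 or control replicate 3 and 3 without TNF replicate 2 or control replicate 2. In DEX, Gpt2, mitochondrial alanine aminotransferase, had 1934, 2370 and 2327, against 977, 948 and 1168 in control, a log2 fold change of 1.09 ± 0.0928 (adjusted p = 3.66e-07). Slc1a5, a glutamine transporter, rose by 0.64, Ddit4, an mTORC1 inhibitor, rose by 1.44, and Vldlr, a lipoprotein receptor, fell by 0.60. The 3 genes of the list that fell in DEX became 5 without DEX replicate 2 or without either CI array.

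**Figure D4:**
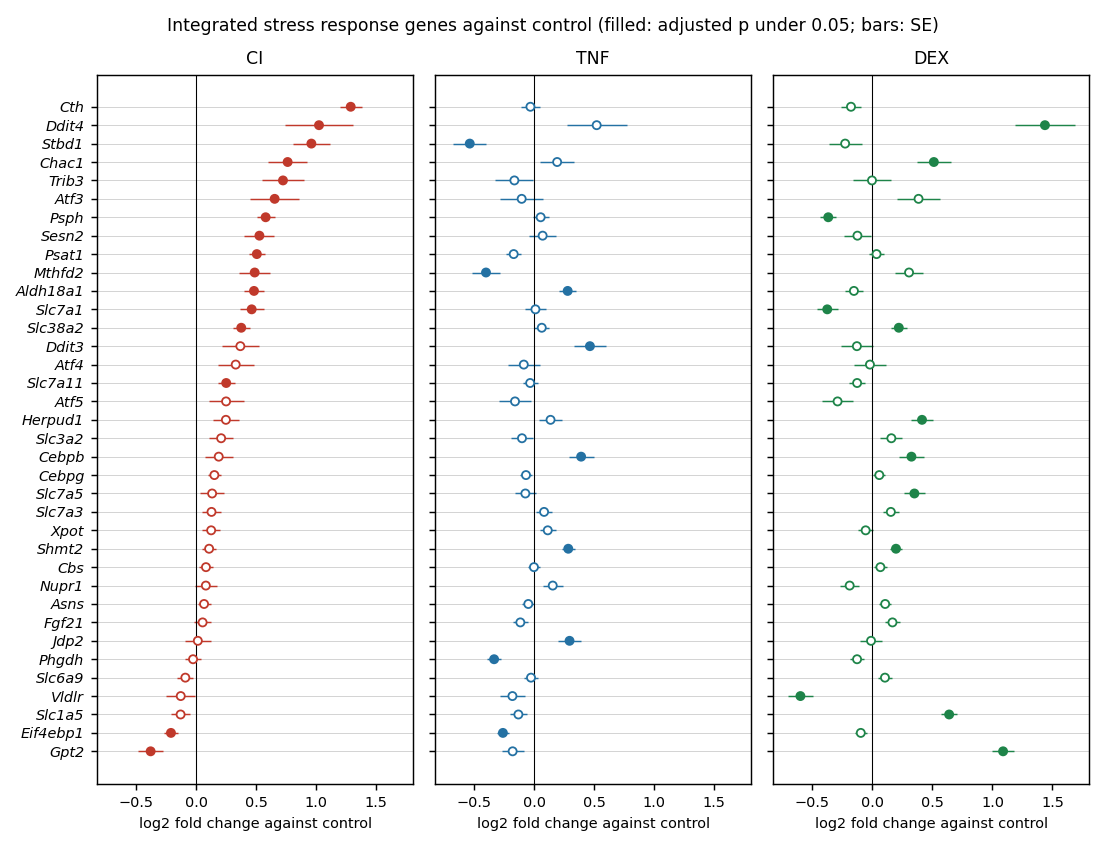
Log2 fold change against control (horizontal axis) of the 36 tested genes of the integrated stress response and ATF4 list, ordered by the CI value, for CI, TNF and DEX from left to right; bars are standard errors and filled points have an adjusted p under 0.05. In CI 14 points are filled above 0 and 2 below, in TNF 5 above and 4 below, and in DEX 9 above and 3 below.

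Of 15 genes for the eIF2α kinases, phosphatase subunits and the exchange factor eIF2B, 8 rose and 1 fell in CI, 2 rose in TNF, and 4 rose and 1 fell in DEX. The share that rose in TNF, 13.3%, was near the 13.9% of all genes. In CI, Eif2b2, a subunit of eIF2B, rose by 0.39, Eif2ak2, the double-stranded RNA kinase PKR, rose by 0.60 and Ppp1r15b, a phosphatase subunit, rose by 0.47, whereas Impact, an inhibitor of the kinase GCN2, fell by 0.39. In TNF both Impact, by 0.38, and Eif2ak4, which encodes GCN2, by 0.30, rose. In DEX Eif2ak2 had 373, 482 and 468, against 798, 860 and 933 in control, a log2 fold change of -0.95 ± 0.0889 (adjusted p = 9.91e-07), while Ppp1r15a rose by 0.51, Impact by 0.24 and Gcn1, the GCN2 activator, by 0.23. The 8 genes that rose in CI became 3 without CI replicate 1 and 5 without CI replicate 2 or any control array, and the 4 in DEX became 1 without control replicate 2 and 2 without DEX replicate 1 or 3.

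Of 15 genes listed as mitochondrial translation factors, a list that also holds the transcription factor Tefm, 5 fell in TNF, none rose and 10 did not pass. Their median log2 fold change was -0.17, and over all genes 11.2% fell. Tufm, the mitochondrial elongation factor Tu, had 914, 889 and 864 in TNF, against 1182, 1108 and 1238 in control, a log2 fold change of -0.40 ± 0.0582 (adjusted p = 0.000143). Gfm1, the mitochondrial elongation factor G, and its relative Gfm2 fell by 0.38 and 0.33, and Tsfm, the exchange factor of Tufm, fell by 0.22. No TNF array of these 4 genes, which were picked by their values, reached the control range. Over all genes tested 21.3% lay wholly below control. In CI 3 rose and none fell, among them Gfm1, with 1989 and 1888 in CI, against 1283, 1245 and 1392 in control (0.56), Qrsl1, a subunit of the enzyme that makes mitochondrial glutaminyl-tRNA (0.65), and Tefm, the mitochondrial transcription elongation factor (0.34). In DEX Gatb, another subunit of that enzyme, rose by 0.31 and Tufm rose by 0.20, while Gfm2 fell by 0.21. The share that rose in DEX, 13.3%, was near the 14% of all genes. Gfm2 no longer passed without DEX replicate 1, DEX replicate 2, control replicate 1 or control replicate 3. Of the 2 genes that rose, 1 was lost without control replicate 2.

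Of 19 genes for maturation and modification of mitochondrial tRNA, 5 rose and 1 fell in CI, 2 rose and 6 fell in TNF, and 8 rose and 1 fell in DEX. Hsd17b10, a subunit of mitochondrial RNase P, rose by 0.65 in DEX, and Osgepl1, a tRNA-modifying enzyme of mitochondria, fell by 0.30 in TNF. Of 10 cytosolic elongation and release factors, 3 rose and 1 fell in CI, 2 rose in TNF and 2 rose in DEX. The one that fell in CI was Eef2, the translocation factor, by 0.32 on the log2 scale. That share of the list, 10%, was near the 8.88% of all genes. Of 9 genes for tRNA export and aminoacyl-tRNA quality control, 2 fell in CI, 2 rose and 1 fell in TNF and 1 rose in DEX. The shares that fell in TNF and rose in DEX, 11.1% each, were near those of all genes, 11.2% and 14%. Dtd1, a D-aminoacyl-tRNA deacylase, fell by 0.51 in CI. In TNF Slfn2 rose by 0.70 and Xpo5, an RNA exporter, by 0.38. Aarsd1, an editing protein for alanyl-tRNA, rose by 0.50 in DEX.

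Wars can be set beside other interferon-γ response genes. Of 13 tested, 2 rose in CI, 7 rose in TNF and 9 fell in DEX, with median log2 fold changes of 0.13, 0.28 and -0.87. Cxcl10, an interferon-inducible chemokine, was 1.21 in CI, 1.05 in TNF and -2.90 in DEX, and Psmb9, an immunoproteasome subunit, fell by 1.76 in DEX. Wars, at 0.40, 0.17 and 0.00, did not fall in DEX. The 2 genes that rose in CI became 1 without either CI array, any control array or TNF replicate 2, and 5 without DEX replicate 2. Of 24 genes of mTORC1 and amino acid sensing, 4 rose and 3 fell in CI, 3 fell in TNF, and 4 rose and 4 fell in DEX. The shares that fell in TNF (12.5%) and rose or fell in DEX (16.7% each) were near those of all genes, 11.2% in TNF and 14% and 13.6% in DEX. Sesn2, a leucine sensor of the mTORC1 list, rose by 0.53 in CI, and Sesn3, a related protein, fell by 0.85 in DEX.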

How the data were processed

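The deposited table holds linear intensity values per probe set on 11 arrays, and the submitters' normalization and summary method are not given in the sources used here. It has 45101 probe sets, of which 34945 carry 1 gene symbol, 932 several and 9160 none, and 64 are Affymetrix controls. A symbol's brightest probe set stood for its gene, and genes at or above the 25th percentile of mean intensity (51.7) were kept. Values were tested as log2(intensity + 16) with limma 3.58.1 in R 4.3.3, all arrays in 1 fit with 1 mean per group, and p-values were adjusted by Benjamini-Hochberg over 15623 genes. The fit had 7 residual degrees of freedom. Precision is set by how few arrays there are. Arrays of 1 group had Spearman correlations of at least 0.996 and were not copies of each other. The code was tested on simulated data with 200 changed genes. Per-array values were given for the 5 members with the smallest adjusted p in each direction, compartment and comparison with control. They were also given for members next to the threshold, and a few fixed genes were named as well. From the lists, genes were named among the 4 with the smallest adjusted p, but not all 4 each time. Further list genes were chosen after their values were seen, and only some list genes have per-array values. Members and lists were chosen with earlier results of these data known. Promoters were RefSeq sequences. Alternatives were other pseudocounts, dim filters, scalings, probe set rules, 2-group fits, a replicate block, each array left out, and, chosen after seeing the data, the actin ratio as a covariate.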

Additional observations from a re-analysis of the deposited data

How the results depend on the processing

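No call of a synthetase changed sign under any alternative run, but several counts moved by over 1.5 times. Leaving out 1 array at a time, the CI counts ranged from 4 to 12 for cytosolic genes higher and 0 to 3 for mitochondrial genes higher, and the compartment difference in log2 fold change from 0.22 to 0.33. Over all genes, 1433 passed in CI without CI replicate 1, against 2696 with it. The TNF counts ranged from 2 to 9 for cytosolic higher and 2 to 6 for mitochondrial lower, and the DEX counts from 1 to 2 for cytosolic lower and 0 to 1 for mitochondrial lower. For TNF against CI the ranges were 0 to 1 and 0 to 2 higher (cytosolic and mitochondrial) and 2 to 5 cytosolic lower. For DEX against CI they were 0 to 2 cytosolic higher, 4 to 8 mitochondrial higher and 0 to 1 mitochondrial lower, and for TNF against DEX 2 to 7 cytosolic higher and 1 to 2 cytosolic lower.

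The mean of all probe sets gave 2 mitochondrial genes higher and 1 lower in CI, 1 cytosolic and 2 mitochondrial genes higher in TNF against CI, and 1 mitochondrial gene lower in DEX against CI. With only the 2 groups compared in the fit, 3 mitochondrial genes were higher in CI and 4 cytosolic genes were higher in TNF against DEX. The actin ratio as a covariate gave 2 mitochondrial genes higher and 1 lower in CI and 7 lower in TNF. Quantile normalization gave 4 cytosolic higher and 7 mitochondrial lower in TNF, 0 mitochondrial higher in TNF against CI, and 4 cytosolic higher and 4 lower in TNF against DEX. Median centring gave 2 mitochondrial lower in TNF, 1 cytosolic and 3 mitochondrial higher in TNF against CI, and 1 cytosolic lower in TNF against DEX. A pseudocount of 64 gave 1 cytosolic higher in TNF against CI, a dim filter at the median 2 mitochondrial higher there, and a pseudocount of 1 or no dim filter 1 cytosolic lower in TNF against DEX. Among the other lists, the mean of all probe sets gave 1 stress response gene higher in TNF and 6 lower in DEX. The actin ratio as a covariate gave 8 genes of the mitochondrial translation factor list lower in TNF. The causes were not tested.

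The deviations of arrays with the same replicate number correlated between -0.29 (CI 2 and DEX 2) and 0.34 (control 3 and TNF 3), and 6 of 15 such pairs were over 0.1. Pairs with different numbers ran between -0.35 (control 3 and DEX 1) and 0.29 (CI 1 and DEX 2). The main fit did not pair the arrays by number, and whether the numbers mark a shared batch was not tested. A fit with the replicate block gave 0 mitochondrial genes higher in CI, and the other synthetase counts stayed within 1.5 times.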
